A study of Mus musculus with 9 samples.

Results

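L1Md_A is one of the youngest families of LINE-1, the autonomous retrotransposon of the mouse genome. Its copies were examined here in the RNA of mouse embryonic stem cells (ESCs), cultured pluripotent cells that derive from the early embryo. The members were all annotated copies that carry the repeat name L1Md_A in the deposited count table. They numbered 6350 of 623916 copies of transposable elements (TEs), which spread over 1034 repeat names. Of the 6350 copies, 2790 were at least 5000 bp long and are called long here, and 3560 were shorter.

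The libraries were made from ESCs of the C57BL/6 mouse strain and formed 3 groups of 3. The groups were Terc-/- ESCs of generation 4 (G4), Terc-/- ESCs of generation 1 (G1) and wild-type (WT) ESCs, so that both Terc-/- groups lacked the RNA component of telomerase and differed in how many generations had passed without it. Telomeres shorten over such generations, and the design asks whether TE expression changes with them. Nothing in the labels says that the 3 libraries of a group were separate cultures or lines, and the replicate number in the methods of the study is a different one. Here n = 3 therefore counts libraries, and a p-value reflects the spread between libraries alone, which may be technical. Generation and cell line cannot be told apart in this design. DNA copy number was not measured in these libraries, so a loss of DNA at a locus cannot be told apart from lower expression. Terc overlapped 0 of the listed TE copies, so the deletion could not be checked in these data.

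A full-length LINE-1 carries its own promoter at the 5′ end, then the reading frame for the RNA-binding protein ORF1p and that for ORF2p, which holds the endonuclease and the reverse transcriptase that copy LINE-1 RNA into DNA at a new site. Most insertions stop short of the 5′ end and so lack the promoter. In the mouse, the A, T and Gf families still hold copies able to move, and their promoters are built of tandem repeats called monomers. Because young copies are nearly identical and many lie within genes, a read over such a copy may come from the element, from another copy or from the transcript of the host gene. The library kit does not mark the strand, so the transcript of a copy and that of a gene on the other strand cannot be told apart.

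The sequence of the L1Md_A 5′ end is shown through the copies that hold an annotated gene start, since RefSeq promoter windows were the source of sequence used here. Of 32851 such windows, 4 lay wholly within an L1Md_A copy, and 3 of these, upstream of Slc24a3, Gm36816 and A230004M16Rik, held a tandem repeat. Each sequence below is the 250 bases before the gene start in GRCm38.p6 (the same assembly as mm10), written 5′ to 3′ on the strand of the LINE-1, which is the minus strand for all 3. Capitals mark a 62-base stretch that all 3 share.
Slc24a3, chr2:145242361-145242610: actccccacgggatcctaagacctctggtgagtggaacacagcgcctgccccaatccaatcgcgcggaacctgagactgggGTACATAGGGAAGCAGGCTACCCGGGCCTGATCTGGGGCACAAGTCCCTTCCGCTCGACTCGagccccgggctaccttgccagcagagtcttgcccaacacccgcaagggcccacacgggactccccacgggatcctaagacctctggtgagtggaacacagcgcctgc
Gm36816, chr6:67008988-67009237: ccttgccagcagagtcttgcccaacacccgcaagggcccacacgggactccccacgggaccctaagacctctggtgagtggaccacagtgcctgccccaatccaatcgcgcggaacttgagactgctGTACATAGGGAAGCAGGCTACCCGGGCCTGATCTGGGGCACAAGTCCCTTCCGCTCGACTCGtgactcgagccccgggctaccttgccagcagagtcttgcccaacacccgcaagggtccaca
A230004M16Rik, chr11:41710094-41710343: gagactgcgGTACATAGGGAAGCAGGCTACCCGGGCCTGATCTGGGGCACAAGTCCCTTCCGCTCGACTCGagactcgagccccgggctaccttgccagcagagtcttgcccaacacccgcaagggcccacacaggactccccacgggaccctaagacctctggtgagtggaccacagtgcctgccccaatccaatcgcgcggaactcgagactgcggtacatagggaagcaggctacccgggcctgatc

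Within the 300-base windows (the 250 bases and the 50 after the start), the sequence repeated itself every 201 bases at Slc24a3, with 98 of 99 compared bases the same, and every 208 bases at Gm36816 (89 of 92) and at A230004M16Rik (90 of 92). The 62-base stretch was chosen as the longest that these 3 windows share. Searched on both strands, it was found in 3 of the 32851 windows (0.00913%), which are the 3 it was taken from, and in no other. The windows lay 14, 405 and 104 bases from the 5′ end of their copies. Over the 9 libraries together these copies had 3.29, 11.1 and 9.15 counts, too few for a test. The fourth window, upstream of Smn1, lay in a copy with 1.12 counts and held no such repeat. Only the Gm36816 start ran in the direction of its LINE-1.

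Among the listed copies, which all have a count in at least 1 library, those of L1Md_A were the least diverged of the large repeat families. The number in the deposited identifiers, read as the divergence from the family consensus per 1000 bases, had a median of 13 over the L1Md_A copies, rank 1 of 411 repeat names with at least 100 copies, against 215 over all TE copies. The median length was 3599 bp, and the range was 74 to 9892 bp. A large set of copies was of nearly one length, since 1102 copies (17.4%) were between 990 and 999 bp, with 996 bp the commonest length in L1Md_A (712 copies) and in L1Md_T (1446 copies). Of the 712 copies of 996 bp, 456 directly abutted another L1Md_A piece on the same strand. Near the length limit, the shortest long copy had 5000 bp and the longest short copy 4999 bp, with 48 copies within 100 bp above the limit and 36 below. The X chromosome held 10.3% of the L1Md_A copies, against 3.82% of all TE copies.

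L1Md_A gave few reads for its size. A library held 3078 to 4127 L1Md_A counts of 918879 to 1137257 counts in all, a share of 0.325 to 0.335% in G4, 0.344 to 0.363% in G1 and 0.372 to 0.379% in WT. Over the 9 libraries together this came to 1.44 counts per kb of annotated sequence, against 5.98 for L1Md_T and 35.5 for all TE copies. The table lists only copies with a count in at least 1 library. At least 5 counts over all libraries were reached by 723 L1Md_A copies (11.4%), against 29.5% of all copies, and 56 copies (0.882%, against 2.13% of all) passed the filter for a test of their own. These 56 held 51.6% of the L1Md_A counts, and 1 copy within Melk held 6.21%.

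Most of the L1Md_A counts lay in copies that had received divided reads. In 5120 of the 6350 copies at least 1 value was not a whole number, which shows that reads matching several places had been divided, and the 1230 copies with whole values only held 17.3% of the L1Md_A counts. That share was 4.98% for long copies and 36.4% for short copies, against 63.4% over all TE copies. Since 1 fractional value marks a copy as divided, the share of the reads themselves that were divided is not known. How the reads were divided is not given in the sources used here. The placing of a read on a single young copy is therefore less certain than for older repeats.

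The L1Md_A family as a whole was lower in G4 ESCs than in WT ESCs. Summed over all copies and scaled to library size, it stood at 3064, 3100 and 3082 CPM (counts scaled to a common library size) in G4, at 3578, 3761 and 3628 CPM in G1 and at 3902, 3897 and 3791 CPM in WT. All 3 G4 libraries lay below all G1 and WT libraries. The means were 3082 ± 18.4 CPM in G4, 3656 ± 94.5 CPM in G1 and 3864 ± 62.7 CPM in WT (SD, n = 3 each). The log2 fold change was -0.33 (SE 0.038, adjusted p = 4.79e-07) for G4 against WT and -0.25 (SE 0.038, adjusted p = 2.57e-05) for G4 against G1 in edgeR's quasi-likelihood fit, with Benjamini-Hochberg adjusted p-values. For G1 against WT it was -0.08 (SE 0.038, adjusted p = 0.209), which did not pass the threshold of 0.05. In the same fits 46.5% of the 853 repeat names were called for G4 against WT and 23.4% of the 853 were called lower, with 42.4% called for G4 against G1 and 11.8% for G1 against WT. These comparisons share samples and are not independent of each other.

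The direction of this change depended on which copies were counted. Among the copies with whole values the sum was higher in G4, at 649 ± 17.0 CPM in G4, 593 ± 33.8 CPM in G1 and 575 ± 12.6 CPM in WT (SD, n = 3 each), so that G4 was above WT by 0.17 on the log2 scale (SE 0.069, adjusted p = 0.0438, edgeR) in a fit in which 35.5% of repeat names were called. Among the 5120 divided copies it was lower, at 2349 ± 91.2 CPM in G4, 3078 ± 90.3 CPM in G1 and 3391 ± 79.5 CPM in WT (SD, n = 3 each), with G4 against WT at -0.53 on the log2 scale (SE 0.043, adjusted p = 3.92e-10, edgeR) in a fit with 65.7% of names called. The split into whole and divided copies used the very counts that were compared, so neither subset is an independent check. Single copies weighed on the whole-valued sum. In the fit of single copies those in Bard1 and near Gm32885 had 76.5 and 35.1 CPM in G4 and 41.9 and 2.38 CPM in WT. The Zfp697 copy (6.56 CPM in G4, 44.1 CPM in WT) and one at chr3:123924755-123927064 (2.49 and 10.8 CPM) went the other way. The whole-valued sum without such copies was not tested. Scaled by library totals alone, which moved the median over all repeat names to 0.135 on the log2 scale, the fall in G4 against WT was -0.19 (adjusted p = 0.000137, edgeR).

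**Figure D1:**
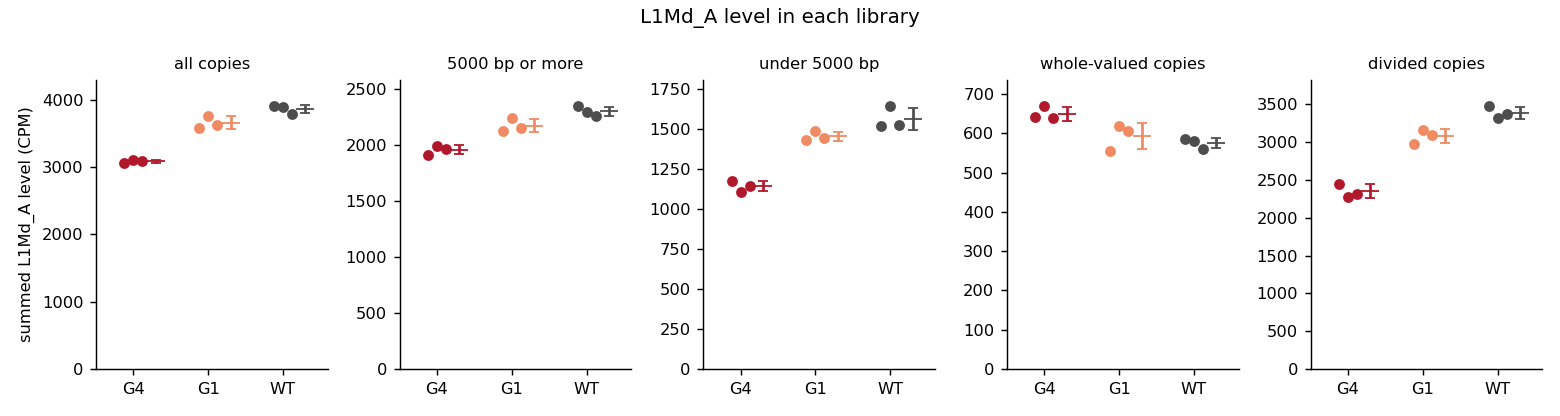
Sums over L1Md_A copies in CPM on vertical axes that start at 0, for the 9 libraries (points) with the group mean and SD beside them. The panels show all copies, copies of 5000 bp or more, shorter copies, whole-valued copies and divided copies. The 3 G4 libraries sit between 3064 and 3100 CPM for all copies, below the 3578 to 3761 CPM of G1 and the 3791 to 3902 CPM of WT.

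Both length classes were lower in G4. The long copies summed to 1915, 1993 and 1969 CPM in G4, 2125, 2240 and 2155 CPM in G1 and 2349, 2296 and 2264 CPM in WT. The short copies summed to 1177, 1110 and 1146 CPM in G4, 1432, 1488 and 1448 CPM in G1 and 1520, 1643 and 1524 CPM in WT. In both classes the G4 libraries did not overlap those of the other groups. The log2 fold change for G4 against WT was -0.23 for long copies (SE 0.044, adjusted p = 0.000143) and -0.45 for short copies (SE 0.052, adjusted p = 1.92e-07, both edgeR). Among the copies with whole values the long class was instead higher in G4, by 0.43 against WT (adjusted p = 0.00883) and by 0.34 against G1 (adjusted p = 0.0421, both edgeR). In that fit 35.5% and 31.7% of the length classes were called. The tested long copies with whole values lie in Bard1 and Clec4n. In the fit of single copies they had 76.5 and 15.1 CPM in G4 and 41.9 and 0 CPM in WT, beside sums of 125 and 92.9 CPM. The whole-valued sum without them was not tested. For G1 against WT the fold change was -0.08 over all long copies (adjusted p = 0.278) and -0.10 over all short copies (adjusted p = 0.246, both edgeR). The background was 48.2% of the 890 length classes of all repeat names called for G4 against WT and 12.9% for G1 against WT. Per kb of annotated sequence the long copies stood at 0.117 CPM in G4, 0.130 CPM in G1 and 0.138 CPM in WT, and the short copies at 0.210 CPM in G4, 0.267 CPM in G1 and 0.286 CPM in WT, so that short copies had the higher level per length in each group. The classes sort annotated pieces, not whole insertions, since 456 of the 712 copies of 996 bp abutted another L1Md_A piece on the same strand.

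The length classes differed in G4, and for G4 against WT the difference rested on a single pair of copies. The log2 ratio of the long to the short sum was 0.78 ± 0.071 in G4, 0.58 ± 0.011 in G1 and 0.56 ± 0.073 in WT (SD, n = 3 each). The ratio was higher in G4 than in WT by 0.22 (SE 0.064, adjusted p = 0.0202, limma) and higher than in G1 by 0.20 (adjusted p = 0.0354, limma), where 59% and 46.2% of the 39 repeat names with enough counts in both classes were called. The exact two-sided permutation test gave p = 0.1 for both, the smallest that 3 against 3 libraries allow. The limma call for G4 against WT was lost without any one of WT 2, WT 3, G4 2 and G4 3, with adjusted p-values of up to 0.0628. That for G4 against G1 was lost without any one of WT 3, the G1 libraries, G4 2 and G4 3, with adjusted p-values of up to 0.109. Without the 2 short copies in Slc17a5 the difference for G4 against WT was -0.02 (adjusted p = 0.861, limma), and the short copies fell by 0.22 (adjusted p = 0.00201, edgeR), close to the -0.23 of the long ones, whereas 0.12 of the difference for G4 against G1 remained, not called (adjusted p = 0.169, limma). The setting without these copies was chosen after the data were seen. L1Md_T, an active family with more reads, differed the other way, with a long to short ratio lower in G4 than in WT by a log2 difference of -0.33 (adjusted p = 0.00153, limma).

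Split by length more finely, L1Md_A fell in G4 against WT in each of 5 bins. The sums of copies of 1000 to under 3000 bp were 201 ± 26.1 CPM in G4, 291 ± 15.9 CPM in G1 and 413 ± 31.8 CPM in WT (SD, n = 3 each), a log2 fold change of -1.04 for G4 against WT (adjusted p = 9.30e-09, edgeR) and -0.50 for G1 against WT (adjusted p = 0.000682, edgeR). Without the Slc17a5 copies these were -0.22 (adjusted p = 0.11) and -0.03 (adjusted p = 0.897). The bin under 1000 bp was at -0.23 for G4 against WT (adjusted p = 0.00383), and at -0.07 (adjusted p = 0.399, edgeR) without them. The bins of 3000 to under 5000 bp (-0.61, adjusted p = 2.37e-05), 5000 to under 6000 bp (-0.40, adjusted p = 2.54e-05) and at least 6000 bp (-0.21, adjusted p = 0.00384, all edgeR) hold neither copy. Over all repeat names 47.1% of the 1115 bins were called for G4 against WT and 12.1% for G1 against WT. With library totals the bins under 1000 bp (-0.054, adjusted p = 0.465) and of at least 6000 bp (-0.040, adjusted p = 0.539, both edgeR) were not called. The copies of at least 6000 bp summed to 1260 ± 95.2 CPM in G4, 1313 ± 48.0 CPM in G1 and 1462 ± 8.52 CPM in WT (SD, n = 3 each).

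**Figure D2:**
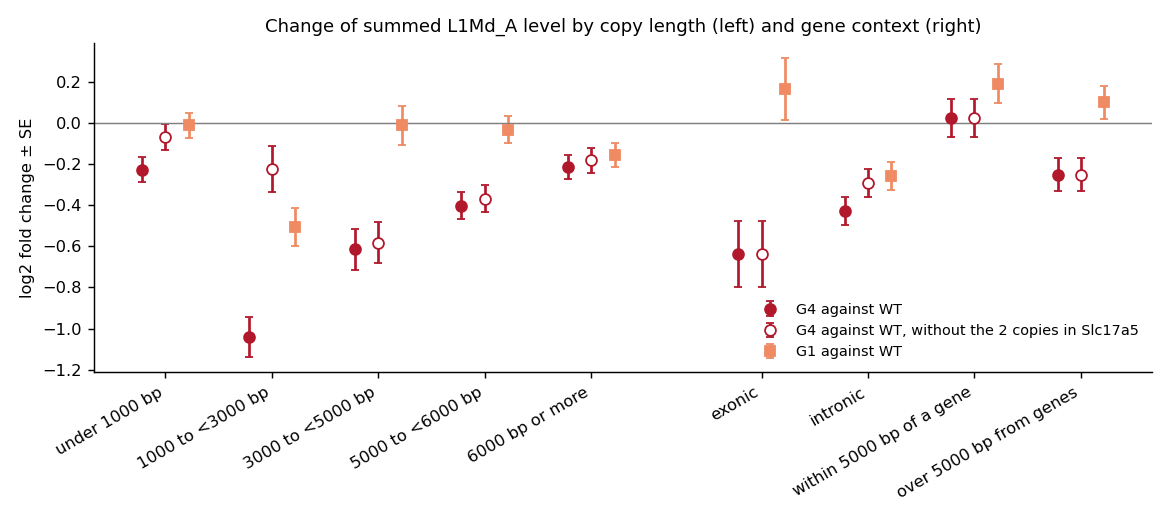
Log2 fold changes of L1Md_A sums by length bin and by place against genes, as points with SE bars, for G4 against WT, for G4 against WT without the 2 Slc17a5 copies (open circles) and for G1 against WT. The bin of 1000 to under 3000 bp is lowest, at -1.04 for G4 against WT and at -0.22 without the 2 copies, and copies near genes sit at 0.025.

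Where a copy lay against genes made a difference to how many reads it had. Only 1858 copies were intronic, yet they held 62.7% of the L1Md_A counts, whereas the 3849 copies more than 5000 bp from any gene held 23.6%. A further 622 lay within 5000 bp of a gene (11.5% of counts) and 21 lay mostly in exons. In protein-coding genes 948 copies ran against the gene (38.7% of counts) and 533 ran with it (21.1%). Intronic copies were lower in G4 than in WT, at 1847, 1968 and 1930 CPM in G4, 2089, 2227 and 2151 CPM in G1 and 2572, 2607 and 2561 CPM in WT. Their log2 fold change was -0.43 for G4 against WT (SE 0.068, adjusted p = 4.00e-06) and -0.26 for G1 against WT (SE 0.068, adjusted p = 0.0155, both edgeR). Without the Slc17a5 copies these were -0.29 (adjusted p = 0.000852) and -0.18 (adjusted p = 0.140, both edgeR), so the G1 call was lost, as it also was without G1 1 (adjusted p = 0.0599) or G1 3 (adjusted p = 0.0676, both edgeR). In the fit by place 39% of the 2171 classes of all repeat names were called for G4 against WT and 6.45% for G1 against WT.

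Away from genes the long copies were lower in G4, and the short copies were not called. All copies more than 5000 bp from any gene were lower in G4, at 722 ± 44.4 CPM in G4, 921 ± 34.4 CPM in G1 and 859 ± 34.0 CPM in WT (SD, n = 3 each), with a log2 fold change of -0.25 for G4 against WT (adjusted p = 0.0119, and 0.0545 without G4 2, edgeR). The long copies there summed to 445, 440 and 425 CPM in G4, 593, 635 and 580 CPM in G1 and 616, 598 and 572 CPM in WT, a log2 fold change of -0.45 for G4 against WT (SE 0.085, adjusted p = 7.88e-05, edgeR), in a fit with 39.5% of all such classes called. The short copies there were at 283 ± 42.6 CPM in G4, 319 ± 7.63 CPM in G1 and 266 ± 13.8 CPM in WT (SD, n = 3 each), with a log2 fold change of 0.09 for G4 against WT (SE 0.109, adjusted p = 0.543, edgeR). In the fit by place the classes of copies far from genes had a median of 0.419 over 388 repeat names. A fit of these copies alone, whose scaling shifted G4 against WT by -0.371 on the log2 scale, gave -0.62 for all far L1Md_A copies (adjusted p = 7.66e-08), -0.81 for long ones (adjusted p = 4.30e-10) and -0.27 for short ones (adjusted p = 0.0572, all edgeR). Whether long and short copies differ there was not tested. Copies within 5000 bp of a gene were at 389 ± 23.6 CPM in G4, 438 ± 26.8 CPM in G1 and 383 ± 17.3 CPM in WT (SD, n = 3 each), with a log2 fold change of 0.025 for G4 against WT (adjusted p = 0.867, edgeR). Exonic copies fell by 0.64 (SE 0.162, adjusted p = 0.00177, edgeR) to 55.9 ± 1.28 CPM in G4, against 97.8 ± 2.51 CPM in G1 and 87.2 ± 9.72 CPM in WT (SD, n = 3 each). Without the copy in Zfp697, a setting chosen after the data were seen, the exonic sum was at 0.25 for G4 against WT (adjusted p = 0.312) and at 0.72 for G1 against WT (adjusted p = 0.0110, both edgeR).

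Of the 56 copies tested one by one, 11 rose and 19 fell in G4 against WT, of which 9 and 16 changed by a fold of 2 or more, with the Pcyt1b copy at that limit. Over all 13278 copies tested, 42.6% were called, 21.3% higher and 21.3% lower. In G1 against WT 1 copy rose and 6 fell, against a background of 6.77% called, 2.41% higher and 4.36% lower. In G4 against G1 10 rose and 17 fell, against a background of 38.2% called in either direction. The median log2 fold change of the tested L1Md_A copies was -0.15 for G4 against WT, against -0.02 over all copies tested. Among the 30 long copies 7 rose and 9 fell in G4 against WT, and among the 26 short copies 4 rose and 10 fell. Of the 13 copies with whole values 6 rose and 2 fell, and of the 43 divided copies 5 rose and 17 fell. The split used the counts that were compared. Shares of calls for whole-valued and for divided copies of all repeat names are not given here. The G4 libraries lay wholly above the WT libraries for 14 copies and wholly below them for 21. No copy was called higher in both G4 and G1 against WT, and 5 copies were called lower in both, out of 19 in G4 and 6 in G1. The WT libraries are shared between these contrasts. No share over all tested copies is given here for such counts, so they show nothing particular to L1Md_A.

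**Figure D3:**
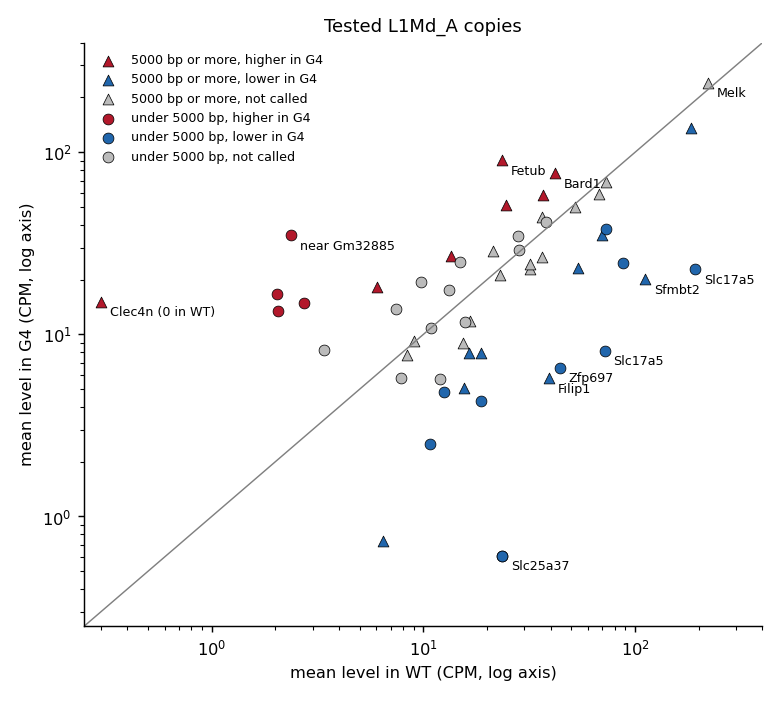
Mean CPM of the 56 tested L1Md_A copies in G4 (vertical) and WT (horizontal) on log axes, coloured by the call for G4 against WT and shaped by length class. Copies below the diagonal line are lower in G4, with the longer Slc17a5 copy at 22.8 CPM in G4 and 192 CPM in WT; values under 0.3 CPM are drawn at 0.3.

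The copy with the most reads lay in an intron of Melk, a protein kinase of dividing cells (chr4:44351834-44358419, minus strand, 6586 bp, mm10). It had 210, 270 and 243 CPM in G4, 195, 189 and 188 CPM in G1 and 203, 241 and 220 CPM in WT. The G4 and WT libraries overlapped (log2 fold change 0.13, SE 0.116, adjusted p = 0.407), and the copy was higher in G4 than in G1 (0.34, SE 0.117, adjusted p = 0.0239, edgeR). The next lay in an intron of Eri1, an exoribonuclease that trims histone mRNA and ribosomal RNA (chr8:35484436-35489597, plus strand, 5162 bp). It had 168, 118 and 124 CPM in G4, 167, 162 and 157 CPM in G1 and 190, 170 and 191 CPM in WT, and fell by 0.43 on the log2 scale in G4 against WT (SE 0.133, adjusted p = 0.0102, edgeR). The G4 and WT libraries did not overlap, but the highest G4 library came close to the lowest WT library, and G4 overlapped G1. The call was lost without G4 2 (adjusted p = 0.0872) or G4 3 (adjusted p = 0.0680), and with a filter of 5 counts over all libraries (adjusted p = 0.159, all edgeR). Another abundant long copy, in Wwp1, an E3 ubiquitin ligase (chr4:19663751-19670326), did not separate the groups at 68.9 ± 14.7 CPM in G4, 61.8 ± 0.75 CPM in G1 and 73.0 ± 9.0 CPM in WT (SD, n = 3 each; adjusted p = 0.748 for G4 against WT, edgeR).

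The strongest fall among abundant copies was that of the pair in Slc17a5, which encodes sialin, the lysosomal exporter of sialic acid. Both are short pieces on the minus strand, the strand of the gene. The longer one (chr9:78568539-78569908, 1370 bp, 24.7% of its bases within annotated exons) had 23.1, 27.4 and 18 CPM in G4, 76.2, 87.7 and 85.8 CPM in G1 and 164, 203 and 211 CPM in WT. The groups were fully separated, with G1 between G4 and WT. The log2 fold change was -3.07 for G4 against WT (SE 0.178, adjusted p = 2.74e-13), -1.21 for G1 against WT (SE 0.147, adjusted p = 3.08e-06) and -1.86 for G4 against G1 (SE 0.195, adjusted p = 3.19e-08, all edgeR). The smaller one (chr9:78568004-78568344, 341 bp) had 0, 12.8 and 11.7 CPM in G4, 29.2, 27.5 and 33.0 CPM in G1 and 69.8, 66.8 and 78.7 CPM in WT, with log2 fold changes of -3.05 (SE 0.352, adjusted p = 1.19e-07) and -1.27 (SE 0.287, adjusted p = 0.00563, both edgeR) for G4 and G1 against WT. The gene moved with them, since the copies of other repeat names in the exons of Slc17a5 fell by 3.22 on the log2 scale in G4 against WT (SE 0.152, adjusted p = 5.45e-25, edgeR), at 34.2 CPM in G4, 148 CPM in G1 and 316 CPM in WT.

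Other falls in G4 were spread over introns of unrelated genes. In Sfmbt2, a Polycomb protein that is imprinted in the mouse placenta, a long copy (chr2:10547861-10554852, 6992 bp) had 12.1, 26.5 and 21.6 CPM in G4, 64.7, 75.3 and 70.4 CPM in G1 and 124, 109 and 101 CPM in WT. Its groups did not overlap, and it fell by 2.43 in G4 (SE 0.209, adjusted p = 6.29e-10) and by 0.66 in G1 (SE 0.173, adjusted p = 0.0181, both edgeR) against WT on the log2 scale. A long copy in Filip1, a filamin-interacting protein (chr9:79901928-79908970, 7043 bp), was low in both Terc-/- groups, at 5.50, 3.65 and 8.09 CPM in G4 and 4.17, 7.97 and 3.30 CPM in G1, against 40.6, 36.6 and 40.3 CPM in WT. Its log2 fold changes were -2.74 for G4 (SE 0.360, adjusted p = 9.38e-07) and -2.86 for G1 (SE 0.368, adjusted p = 7.68e-06, both edgeR) against WT, and 0.12 for G4 against G1 (SE 0.493, adjusted p = 0.876).

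Falls were also seen in 4 further copies among the most abundant or the largest changes. In Hacd1, an enzyme of very long chain fatty acid elongation, a long copy (chr2:14029150-14035332) was at 35.2 ± 2.84 CPM in G4, 53.3 ± 11.1 CPM in G1 and 70.2 ± 6.61 CPM in WT (SD, n = 3 each; log2 fold change -0.99 for G4 against WT, adjusted p = 0.000208, edgeR). In Ppp1r9a, which encodes the actin-binding protein neurabin, a long copy (chr6:5064781-5069963) was at 23.0 ± 3.55 CPM in G4, 66.4 ± 7.25 CPM in G1 and 53.8 ± 1.74 CPM in WT (SD, n = 3 each; -1.22, adjusted p = 4.53e-05, edgeR). In Trmt10b, a tRNA methyltransferase, a short copy (chr4:45313274-45313911) was at 4.31 ± 2.39 CPM in G4, 13.7 ± 6.39 CPM in G1 and 18.8 ± 4.81 CPM in WT (SD, n = 3 each; -2.14, adjusted p = 0.000887, edgeR). In none of these 3 did the G4 and WT libraries overlap. A copy of 3706 bp that ended 25 bp from Eif4g2, a relative of the translation factor eIF4G (chr7:111064020-111067725), was lowest in G4 and highest in G1, with 38.5, 31.1 and 44.9 CPM in G4, 107, 102 and 96.8 CPM in G1 and 71.9, 84.6 and 62.4 CPM in WT (log2 fold change -0.93 for G4 against WT, adjusted p = 0.000240, edgeR).

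Of the 11 copies that rose in G4 against WT, 7 were long and intronic. That class held 25 of the 56 tested copies and also had 8 falls, so it was not particular to the rises. In Fetub, which encodes a secreted protease inhibitor of the fetuin family, a copy of 6186 bp (chr16:22922862-22929047) had 93.4, 74.0 and 104 CPM in G4, 33.4, 37.2 and 25.3 CPM in G1 and 31.2, 20.9 and 18.2 CPM in WT, a log2 fold change of 1.95 for G4 against WT (SE 0.224, adjusted p = 1.11e-07, edgeR). In Bard1, the partner of BRCA1 in DNA repair, a copy of 6784 bp with whole values only (chr1:71079639-71086422) had 73.6, 78.6 and 77.3 CPM in G4, 23.0, 33.7 and 47.3 CPM in G1 and 40.6, 30.3 and 54.7 CPM in WT, with G4 against WT at 0.86 on the log2 scale (SE 0.220, adjusted p = 0.00251, edgeR). In both, each G4 library was above every G1 and WT library. In Pfkfb1, an enzyme that sets the level of fructose 2,6-bisphosphate, a copy of 6349 bp (chrX:150614402-150620750) had 46.2, 49.3 and 59.3 CPM in G4, 24.0, 23.9 and 31.9 CPM in G1 and 22.9, 24.0 and 26.9 CPM in WT, with G4 against WT at 1.07 on the log2 scale (SE 0.228, adjusted p = 0.000475, edgeR).

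A further 3 long copies rose by less or from a lower level. In Gstcd (chr3:133063379-133068568) the level was 58.4 ± 9.97 CPM in G4, 28.8 ± 8.11 CPM in G1 and 36.9 ± 9.57 CPM in WT (SD, n = 3 each; log2 fold change 0.67 for G4 against WT, adjusted p = 0.0211, edgeR). In Pcyt1b, an enzyme of phosphatidylcholine synthesis (chrX:93721889-93728109), it was 27.0 ± 4.53 CPM in G4, 16.0 ± 8.29 CPM in G1 and 13.5 ± 1.03 CPM in WT (SD, n = 3 each; 1.00, adjusted p = 0.0183, edgeR). In Smc1b, a cohesin subunit of meiosis (chr15:85079152-85085391), it was 18.3 ± 5.70 CPM in G4, 10.5 ± 3.47 CPM in G1 and 6.06 ± 0.776 CPM in WT (SD, n = 3 each; 1.56, adjusted p = 0.00426, edgeR). The G4 libraries were above the WT libraries in all 3 copies. The Gstcd call was lost without G4 3, WT 2 or WT 3 (adjusted p of up to 0.117), and the Pcyt1b call without G4 2, WT 2 or WT 3 (up to 0.0846, both edgeR). Both were also lost in the DESeq2 Wald test (adjusted p = 0.0664 and 0.0602) and with a filter of 5 counts over all libraries (0.0667 and 0.0662, edgeR).

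The largest named rise was next to a gene of unknown role. A short copy of 311 bp with whole values only, 37 bp from Gm32885 (chr15:97156682-97156992), had 20.9, 46.6 and 37.7 CPM in G4, 0 CPM in each G1 library and 1.04, 4.18 and 1.92 CPM in WT. It was higher in G4 than in WT by 3.83 on the log2 scale (SE 0.498, adjusted p = 1.29e-06, edgeR). It had 112 counts in the G4 libraries together and 0 in the G1 libraries, so it was at least 35.9-fold higher in G4 than in G1, taking a floor of 3 counts over the group. Such floors and intervals cover counting error only.

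The 2 exonic copies that passed the filter behaved differently from each other. A copy of 362 bp with whole values only in an exon of Zfp697, a zinc finger protein (chr3:98411323-98411684), had 8.79, 5.48 and 5.39 CPM in G4, 26.1, 26.6 and 33.0 CPM in G1 and 45.8, 47.0 and 39.4 CPM in WT. It fell by 2.75 on the log2 scale in G4 against WT (SE 0.308, adjusted p = 7.10e-08, edgeR). A copy of 282 bp in an exon of the MHC class I gene H2-Q4 (chr17:35384354-35384635) had 31.9, 34.7 and 37.7 CPM in G4, 54.3, 56.7 and 47.3 CPM in G1 and 32.3, 31.3 and 20.2 CPM in WT. It was the 1 copy called higher in G1 against WT (0.93, SE 0.224, adjusted p = 0.00970, edgeR), and G4 against WT was not called (0.33, adjusted p = 0.279). H2-Q4 belongs to a family of near-identical genes, so its reads are uncertain. Its call was lost without G1 2 (adjusted p = 0.0592) or WT 3 (adjusted p = 0.105), and with the filter of 5 counts (adjusted p = 0.0855, all edgeR).

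A pair of copies could not be told apart. A 285 bp piece in an intron of Slc25a37, which encodes the mitochondrial iron importer mitoferrin (chr14:69258029-69258313), and a 285 bp piece within Gm16867 and Gm21451 (chr14:69476279-69476563) held the same value in every library and are 1 measurement, although both are in the counts of falls above. They had 0, 1.83 and 0 CPM in G4, 14.6, 7.09 and 8.80 CPM in G1 and 18.8, 27.2 and 25 CPM in WT. With 2 counts in the G4 libraries and 69 in the WT libraries, G4 had 0.0275 times the WT level (0.00327 to 0.103, 95% interval of the counts). The 2 pieces are held by genes whose exonic copies could be tested only for Gm16867 (-0.36, adjusted p = 0.424, edgeR). In all, 8 of the 723 copies with at least 5 counts shared their values with another L1Md_A copy.

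The remaining called copies of G4 against WT fell outside the rule for naming, and the following were singled out after their values were seen. The copies in Avl9 (-1.81), Bmpr1b (-1.58), Apaf1 (-1.36) and Phka1 (-1.04) fell in edgeR, as log2 fold changes. The copy in Prkar2b, a regulatory subunit of protein kinase A (2.40), that in Cpt1a, the carnitine palmitoyltransferase of mitochondrial fatty acid import (2.66), and that near Gm7240 (2.97) rose. A long copy in Clec4n, a C-type lectin, had 47 counts in the G4 libraries together and 0 in the WT libraries, at least 14.9-fold higher in G4 with a floor of 3 counts over the group. A long copy in Rabgap1l had 2 counts in G4 and 19 in WT, 0.0999 times the WT level (0.0113 to 0.414, 95% interval of the counts).

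**Figure D4:**
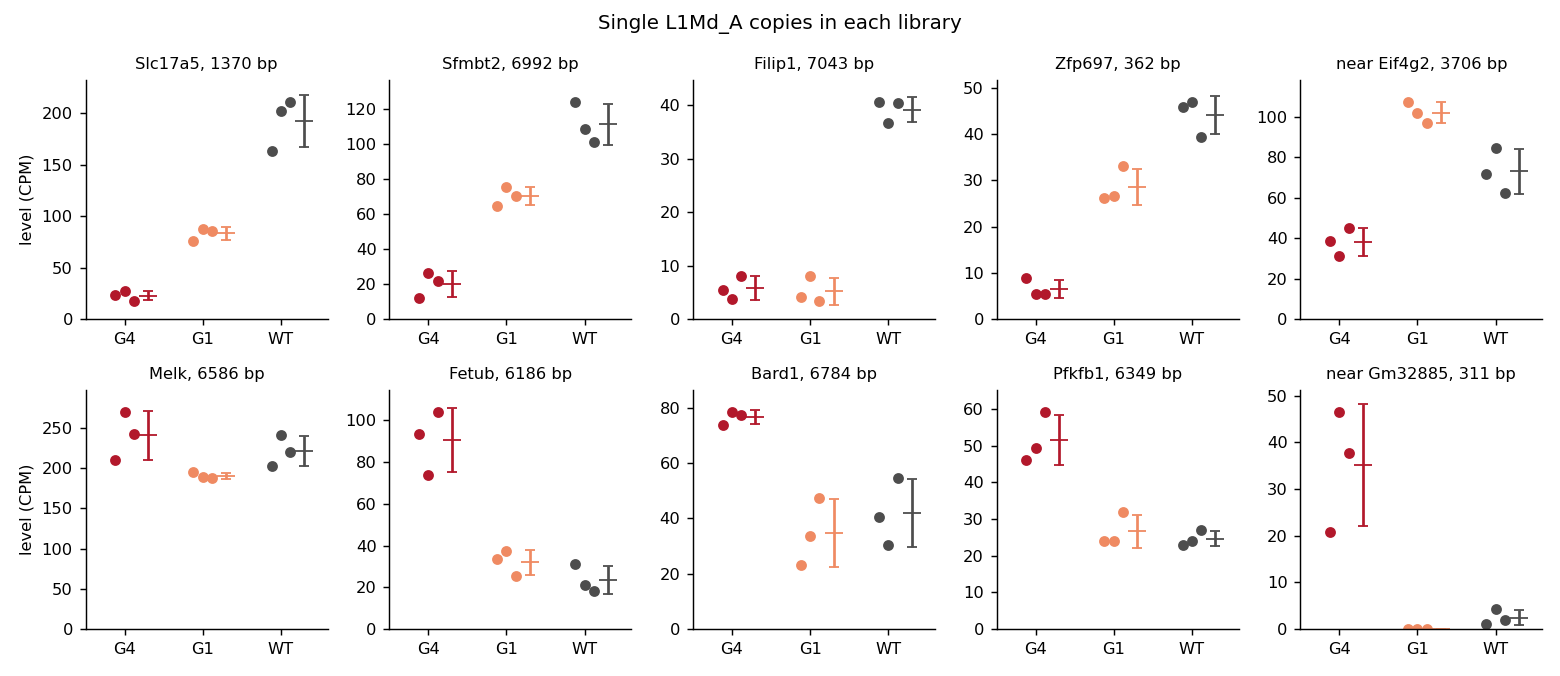
Level of 10 named L1Md_A copies in CPM, on vertical axes that start at 0, with a point for each of the 9 libraries and the group mean and SD beside them. The Slc17a5 copy of 1370 bp is lowest in G4, between in G1 and highest in WT, the Filip1 copy is low in G4 and G1, and the Gm32885 copy is at 0 in G1.

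Beside the H2-Q4 copy, 1 copy was called for G1 and not for G4 against WT, and it lay in Clasp1, which binds the growing ends of microtubules (chr1:118581794-118588576, 6783 bp). It was at 56.1, 66.7 and 54.8 CPM in G4, 34.4, 46.1 and 45.1 CPM in G1 and 76.0, 71.0 and 54.7 CPM in WT. It was lower in G1 than in WT (log2 fold change -0.67, SE 0.194, adjusted p = 0.0330, edgeR), and the G4 libraries were between or among those of the other groups (-0.18 for G4 against WT, adjusted p = 0.462). The G1 call was lost on leaving out any one of the G1 libraries, WT 1 or WT 2, with adjusted p-values of up to 0.142, with the filter of 5 counts (adjusted p = 0.176, edgeR) and in the DESeq2 Wald test (adjusted p = 0.0831). Among copies away from genes, a long copy 61513 bp from the nearest gene (chr6:11832040-11838779) was highest in G1, with 5.50, 11 and 7.19 CPM in G4, 27.1, 38.1 and 34.1 CPM in G1 and 25, 16.7 and 14.4 CPM in WT. Its log2 fold change was -2.04 for G4 against G1 (SE 0.341, adjusted p = 3.75e-05) and -1.21 for G4 against WT (SE 0.371, adjusted p = 0.0103, both edgeR). The second of these was lost without G4 1 (adjusted p = 0.0505) or WT 1 (adjusted p = 0.0681), and with the filter of 5 counts (adjusted p = 0.0635, all edgeR). The study reports a partial deletion of the chromosome that holds this copy in late-generation Terc-/- ESCs. Of the 5 tested L1Md_A copies on chromosome 6, 1 rose and 3 fell in G4 against WT. The falls were those of this copy and of the copies in Avl9 and Ppp1r9a. Over all copies tested in the genome 21.3% were called higher and 21.3% lower. The shares for all copies on chromosome 6 are not given here, so no excess of falls there can be read from these counts. Whether these copies lie in deleted DNA was not tested.

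Copies in a gene or within 5000 bp of it could be set beside that gene in some cases only. Copies of other repeat names had to lie in its exons, since the table holds no gene rows. This gave 19 pairs of a tested copy and a tested gene. In 12 of them the copy was called for G4 against WT, in 9 both were called, and in all 9 the copy and the gene changed in the same direction. The 9 pairs count Slc17a5 for each of its 2 copies, and the copies of Eif4g2, Gm32885 and Gm7240 lie beside the gene. Over all genes read in this way 48.4% were called. Intronic copies of all repeat names with no base in exons were also set beside their genes. The gene was called in 73.1% of the 458 pairs with the copy called, and 92.2% of the pairs with both called changed in the same direction. This set leaves out copies beside genes, so it is not of the same kind as the 9 pairs. Beside Slc17a5, the genes that fell with their copy included Eri1 (-0.60, SE 0.108, adjusted p = 5.68e-06), Eif4g2 (-0.75, SE 0.217, adjusted p = 0.00336) and Apaf1, the apoptosome scaffold (-1.23, SE 0.128, adjusted p = 8.37e-12, all edgeR). The genes that rose with their copy were Bard1 (1.31, SE 0.325, adjusted p = 0.000708), Gm32885 (3.24, SE 0.369, adjusted p = 1.68e-10) and Gm7240 (2.48, SE 0.437, adjusted p = 4.02e-06, all edgeR). In Pfkfb1 the copy rose while the gene was at 0.13 (SE 0.429, adjusted p = 0.831, edgeR), a difference that was not itself tested. How far transcripts of the host genes make up the reads of intronic copies was not tested.

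**Figure D5:**
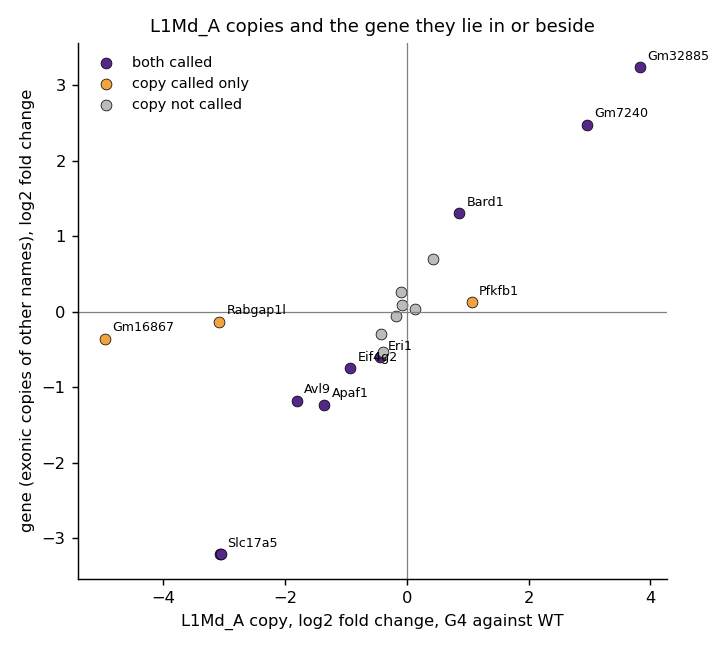
Log2 fold changes for G4 against WT of L1Md_A copies (horizontal) and of the genes that hold or adjoin them (vertical), the genes read through exonic copies of other repeat names. The 9 pairs with both called (Slc17a5 holds 2 copies) lie in the lower left and upper right, with Slc17a5 at -3.22 for the gene.

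Distance from chromosome ends was examined because the study concerns telomeres. Of the L1Md_A copies 54 lay within 1 Mb of an end and 0 of these passed the filter for a test. Within 20 Mb lay 1651 copies (26.0%) with 23.8% of the L1Md_A counts, of which 13 were tested, 3 rose and 5 fell in G4 against WT. Beyond 20 Mb 43 were tested, 8 rose and 14 fell. Over the tested copies of all repeat names 40.2% were called within 20 Mb (22% higher and 18.3% lower) and 43.5% beyond it (21% higher and 22.6% lower).

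Among the other young LINE-1 families the changes in G4 ran in both directions. L1Md_T (-0.53, SE 0.026, adjusted p = 1.14e-12) and L1Md_Gf (-0.58, SE 0.071, adjusted p = 9.57e-07) fell as L1Md_A did, in the same fit of repeat names against WT. Copies with whole values held only 3.41% of the L1Md_T counts and 5.47% of the L1Md_Gf counts. The study reports L1MdTf and L1MdGf as higher in late-generation Terc-/- ESCs than in WT ESCs. Its reads were aligned to consensus sequences, a different measure from sums over single copies. L1_Mus1 (0.44, adjusted p = 1.57e-08), L1_Mm (0.35, adjusted p = 0.000449), L1_Mus3 (0.27, adjusted p = 4.84e-05) and L1Md_F (0.25, adjusted p = 0.00308, all edgeR) rose. L1Md_F2, L1Md_F3, L1_Mus2 and L1_Mus4 were not called, with log2 fold changes between -0.05 and 0.06. In G1 against WT, L1Md_Gf (0.33, adjusted p = 0.00294) and L1Md_T (0.09, adjusted p = 0.0272) rose, L1_Mm fell (-0.28, adjusted p = 0.0190, all edgeR), and L1Md_A was not called.

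Genes that are known to restrain or use LINE-1 were read through TE copies in their exons, so that only some could be tested. Of 29 genes of transcriptional repression 12 were tested, of which 5 rose and 3 fell in G4 against WT, where 24.4% of all genes read in this way were called higher and 24% lower. Suv39h1, a methyltransferase for histone H3 lysine 9, had 86.5, 86.7 and 75.5 CPM in G4, 272, 280 and 270 CPM in G1 and 330, 385 and 437 CPM in WT, and fell by 2.21 on the log2 scale (SE 0.122, adjusted p = 3.85e-22, edgeR). Pphln1, a subunit of the HUSH silencing complex, fell by 0.94 (SE 0.097, adjusted p = 6.32e-12), and Zfp932, a KRAB zinc finger protein, rose by 0.98 (SE 0.254, adjusted p = 0.00105, both edgeR). Of 22 genes that act on LINE-1 RNA or cDNA 9 were tested, of which 2 rose and 0 fell, and the larger rise was that of Mov10, an RNA helicase that restricts LINE-1 (42.7, 46.9 and 39.1 CPM in G4, 13.9, 19.3 and 13.5 CPM in G1 and 15.8, 24.0 and 18.2 CPM in WT, log2 fold change 1.14, adjusted p = 0.000408, edgeR). Of 11 genes of activation or use 7 were tested, of which 2 rose and 2 fell, among them the deacetylase Hdac6, which fell by 3.18 (SE 0.646, adjusted p = 4.51e-05, edgeR) with a G4 level of 0 to 4.42 CPM.

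The tissue check rested on the same kind of reading. Of 10 ESC markers 4 could be tested and all 4 were higher in G4 than in WT, against 24.4% of all genes, with Nanog at 3712 ± 360 CPM in G4, 2234 ± 149 CPM in G1 and 1305 ± 86.8 CPM in WT (SD, n = 3 each). Of 8 feeder fibroblast markers 1 could be tested, Col1a1, at 79.0 to 87.7 CPM in G4, 64.3 to 74.9 CPM in G1 and 33.3 to 49.9 CPM in WT. Of 7 primitive endoderm markers 2 could be tested, and their sum was 48.0 to 75.2 CPM in G4, 337 to 390 CPM in G1 and 712 to 782 CPM in WT, with Gata4 lower in G4 than in WT (-5.27, adjusted p = 4.00e-36) and Sparc higher (2.01, adjusted p = 2.95e-07, both edgeR, as log2 fold changes), whereas 0 of 8 markers of 2-cell-like cells could be. The part of these differences between the lines in the change of L1Md_A was not tested.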

How the data were processed

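RNA of 9 mouse ESC libraries was read through a table of TE copies. Per the labels, total RNA was prepared after removal of feeder cells with a TruSeq RNA kit, and the notes on processing name FastQC 0.11.9, STAR 2.5.3a, featureCounts and mm10. The values used are expected counts of single copies, as deposited by the authors; reads with several matches had been divided by a step not given in the sources used here. The second deposited file held a signal that the authors made from the rounded counts with 1 size factor per library, and it served only to check that relation. Columns named Control were read as WT, and 0 columns belonged to no sample. Deposited starts count from 0, so 1 was added.

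Copies were placed against the GENCODE mouse annotation of the same assembly: exonic with at least 0.5 of the length in exons, intronic, within 5000 bp of a gene, or farther. Expected counts were summed by repeat name, length class (limit 5000 bp), length bin, place or gene (copies in its exons), rounded, filtered (filterByExpr, minimum count 10, minimum total 15), given TMM factors on the totals of the whole table, and fitted in edgeR 4.0.16 (R 4.3.3) over all libraries, with no block. All tests were two-sided, were adjusted over every feature of a level within a contrast, and were called at 0.05. The SE is the size of the log2 fold change divided by the root of F. Log2 ratios of long to short sums (pseudocount 0.5, both sums averaging at least 10) were fitted with limma 3.58.1. Sums were taken per library; totals of 918879 to 1137257 counts set the precision, and intervals at 95% cover counting error only. The scripts were tested on simulated data.

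The members, lists and tests were chosen with earlier results of these data known. Named copies were the 8 largest rises and 8 largest falls of G4 against WT, 4 each of the other contrasts (called, mean of at least 10 counts, no overlap between groups), the 6 most abundant copies, the 4 most abundant long copies within 20 Mb of an end, and called exonic copies; of the listed regulators, the 6 called ones with the largest change were eligible. Alternatives were DESeq2 1.42.0 (size factors and Wald test), library totals, other filters, pseudocounts, length limits and call rules, a replicate block, fits of 2 groups, clusters within 10 kb, copies away from genes, whole-valued copies, omission of the top copy, and omission of each library. Added after seeing the data were omission of the 2 Slc17a5 copies or of the Zfp697 copy, divided copies only, and copies too low for a test of their own.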

Additional observations from a re-analysis of the deposited data

How the results depend on the processing

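The fall of the L1Md_A family in G4 against WT kept its direction and its call under every alternative run except the whole-valued copies. Among these all 9 sums of the family and of its length classes turned positive: for the family 0.17 in G4 against WT, 0.045 in G1 against WT and 0.13 in G4 against G1; in the same order of contrasts, long copies gave 0.43, 0.091 and 0.34, and short copies 0.11, 0.037 and 0.075. The family and the long copies were called for G4 against WT, as were the long copies for G4 against G1. These called sums hold the Bard1 copy, and no whole-valued sum was tested without it. Divided copies gave calls for G1 against WT in the family (-0.14) and in short copies (-0.19). With library totals the long copies of G4 against G1 (-0.025), the bins under 1000 bp (-0.054) and of at least 6000 bp (-0.040) of G4 against WT, and the bin under 1000 bp of G4 against G1 (-0.068) were no longer called, and the signs changed for the bins under 1000 bp (0.014) and of 3000 to under 5000 bp (0.014) of G1 against WT and for at least 6000 bp of G4 against G1 (0.089). Under that scaling 67.8% of the calls over repeat names in G4 against WT were higher, against 49.6% with TMM, 67.6% against 51.3% over length classes, and 72% against 45.9% for repeat names in G4 against G1.

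Without the 2 Slc17a5 copies the long to short difference was -0.018 for G4 against WT, -0.13 for G1 against WT and 0.12 for G4 against G1, none of them called. The short copies of G1 against WT were at 0.051, the intronic copies of G1 against WT at -0.18, and the bin of 1000 to under 3000 bp at -0.22 for G4 against WT, at -0.034 for G1 against WT and at -0.19 for G4 against G1. The bin under 1000 bp was at -0.068 for G4 against WT and 0.092 for G1 against WT, and that of 3000 to under 5000 bp at 0.0050 for G1 against WT. A fit of copies over 5000 bp from any gene alone gave -0.27 and 0.11 for the short copies of G4 and G1 against WT, and copies too low for a test of their own gave for short copies -0.14 in G4 against WT, 0.011 in G1 against WT and -0.15 in G4 against G1, none called. With a limit of 6000 bp the long copies of G4 against G1 were at -0.036 and the difference of G1 against WT at -0.064. With no minimum on the sums, the long to short difference of 0.22 for G4 against WT and 0.20 for G4 against G1 was no longer called (adjusted p = 0.0909 and 0.139, limma). Without the Zfp697 copy the exonic sum was 0.25 for G4 against WT and, now called, 0.72 for G1 against WT. The causes were not tested.

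The replicate numbers did not pair the libraries, with correlations of same-numbered libraries from -0.0153 to 0.0208. The replicate block left the family at -0.33 for G4 against WT (adjusted p = 1.86e-06, edgeR), and the long to short difference lost its calls (0.22, adjusted p = 0.0626 for G4 against WT, and 0.20, adjusted p = 0.0907 for G4 against G1, limma). The block changed no other call on the sums, and gave 11 higher and 18 lower copies in G4 against WT.

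Copies called in G1 against WT numbered 3 lower with a filter of 5 counts, 2 higher with fits of 2 groups, 0 higher and 3 lower with a fold over 2, 2 higher with an unadjusted p and a fold over 2, and 2 higher as clusters. Leaving out each library in turn gave 1 to 2 higher and 3 to 6 lower copies in G1 against WT, and a long to short difference of 0.18 to 0.25 for G4 against WT, -0.020 to 0.052 for G1 against WT and 0.16 to 0.23 for G4 against G1. It gave sums near genes of -0.030 to 0.049, far from genes of -0.32 to -0.22 and short far from genes of -0.0063 to 0.21 for G4 against WT, and intronic sums of -0.30 to -0.25 for G1 against WT and -0.20 to -0.15 for G4 against G1, the last called without WT 2 only. The Wwp1 copy ran from -0.26 to 0.032 for G4 against WT, positive without G4 3. Over 37 changes of named copies and 553 settings, 526 kept their side of the threshold and direction and 26 lost their call.

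Most L1Md_A copies hold some divided reads, which limits the certainty for single copies, and 6294 of the 6350 copies were too low for a test of their own.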
